A study of Mus musculus with 16 samples.

Results

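The genes described are 5 killer lectin-like receptors, Klrg1, Klrd1, Klrc1, Klrk1 and Klre1, among 19938 genes measured on arrays of mouse regulatory T cells (Treg). They were chosen by name, each through the probe sets annotated to that symbol alone, and each had 1 such probe set. Klrg1 was taken up because earlier results of these data put it among the strongest ICOS differences in fresh cells, so its fresh ICOS difference is given as a description. The 16 arrays came from 8 groups of 2, numbered 1 and 2 and labelled as biological replicates, and the design text speaks of 2 independent experiments.

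All cells came from wild type female C57BL/6 mice aged 8 to 12 weeks, whose lymph nodes from several sites were pooled, so an array does not stand for 1 animal. Treg were sorted by surface CD103, the integrin chain encoded by Itgae, and by the costimulatory receptor ICOS into double-positive (CD103pos ICOSpos), ICOS single-positive (CD103neg ICOSpos), CD103 single-positive (CD103pos ICOSneg) and double-negative (CD103neg ICOSneg) cells. In the activated groups each subset had spent 3 days in a suppression assay with Ly5.1 congenic naive CD4 cells, irradiated Rag2-/- splenocytes and soluble anti-CD3 at 0.5 ug/ml, and Treg were then re-sorted as Ly5.1neg CD4pos CD25pos cells. That second gate used neither CD103 nor ICOS, and splenocytes that lack Rag2 hold no mature T or B cells but still hold NK and myeloid cells. In the fresh groups RNA was taken right after the first sort. Values are log2 intensities, on which a difference of 1 is 2-fold. No background level was available for these arrays, so where the lower of 2 levels is dim a fold describes intensities and may understate the difference in RNA. In bulk samples of this kind, fewer cells with a transcript and less of the transcript per cell cannot be told apart.

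Killer lectin-like receptors are C-type lectin-like membrane proteins best known from NK cells and effector CD8 T cells. KLRG1, encoded by Klrg1, carries an inhibitory motif in its cytoplasmic tail and binds classical cadherins, among them E-cadherin, which CD103 also binds, and in Treg it is known as a marker of terminally differentiated effector cells. CD94 (Klrd1) pairs with NKG2A (Klrc1) as an inhibitory receptor for the nonclassical MHC molecule Qa-1, whereas NKG2D (Klrk1) is an activating receptor for stress-induced ligands and signals through the adaptors DAP10 (Hcst) and DAP12 (Tyrobp). Klre1 encodes a partner chain of the KLRI receptors of mouse NK cells.

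All 5 genes lie on chromosome 6. In the RefSeq annotation Klre1, Klrd1, Klrk1, Klrc3, Klrc2 and Klrc1 follow each other with no other protein-coding gene between them, while Klrg1 lies apart, between Mug2 and M6pr. Promoter windows, from 250 bases before to 50 bases after the start, were at hand from RefSeq (GRCm38.p6) for 3 of the 5, namely Klrk1, Klrc1 and Klre1. The windows of Klrk1 (chr6:129623815-129624114, minus strand) and Klrc1 (chr6:129678924-129679223, minus strand) are printed 5′ to 3′ because both genes were highest on the same 2 activated arrays. Capitals mark matches to the motifs searched.
Klrk1: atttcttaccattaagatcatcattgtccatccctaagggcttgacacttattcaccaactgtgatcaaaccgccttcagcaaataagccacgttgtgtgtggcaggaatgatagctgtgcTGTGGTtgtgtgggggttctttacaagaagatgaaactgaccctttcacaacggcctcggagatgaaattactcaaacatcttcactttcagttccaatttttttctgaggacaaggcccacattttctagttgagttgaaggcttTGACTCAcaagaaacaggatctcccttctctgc
Klrc1: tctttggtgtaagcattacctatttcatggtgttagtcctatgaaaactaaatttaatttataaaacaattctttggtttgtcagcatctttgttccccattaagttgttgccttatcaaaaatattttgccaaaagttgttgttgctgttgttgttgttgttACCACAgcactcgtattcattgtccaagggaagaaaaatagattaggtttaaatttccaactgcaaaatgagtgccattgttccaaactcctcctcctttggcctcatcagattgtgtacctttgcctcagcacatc
Both strands were searched for the core motifs of 4 factor families known from effector lymphocytes. ACCACA, the RUNX core, is held by 16.8% of all 32851 RefSeq mouse windows and has 1 match in each of these windows, at base 122 of Klrk1 and base 164 of Klrc1. Klre1, which was dim on all arrays, has 2 windows in the table, and 1 of them holds a match as well, at base 22. TGANTCA, the AP-1 core, is held by 7.81% of windows and has 1 match, at base 268 of Klrk1. The T-box core AGGTGTGA, held by 1.275% of windows, has no match in either. AGATAA, which GATA factors bind, is held by 11.2% of windows and has none either. The matches do not overlap each other, the motifs were chosen with the windows at hand, and a match describes letters only.

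One array stood apart from its label. On activated ICOS single-positive array 2, Foxp3, the transcription factor that defines Treg, was at 8.53, against 12.64 on array 1 of that group and 11.69 to 12.84 on the other 15 arrays. All 15 measured Treg core genes were lower there than on its partner, Itgae and Icos included, and 685 genes differed more than 2-fold between the pair, against 24 to 413 between the arrays of the other 7 pairs. Results of the receptors that rest on this array are therefore also given without it, as are list counts that it changed. On the fresh arrays Itgae and Icos separated the subsets as labelled. On activated ICOS single-positive array 1 Itgae was at 10.00, above the activated CD103 single-positive arrays at 9.94 and 9.87, so that Itgae did not follow the sorted CD103 label there. The mean Icos difference with ICOS was 0.79 in activated CD103-positive cells, against 1.89 in fresh ones. In CD103-negative cells it was 1.25 between activated arrays numbered 1 and -0.61 between those numbered 2, against a fresh mean of 2.14. Activated groups are thus named by the first sort.

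The levels of Klrg1 were ordered by subset. Its mean over the 16 arrays, 8.30, was above that of 69.0% of genes, while Klrk1 (5.44), Klrc1 (5.33) and Klrd1 (5.31) had means above 30.0%, 27.8% and 27.4% of genes and Klre1 (4.03) above 3.11%. Probe sets differ in affinity, so these percentiles place each probe set on its arrays and do not rank the 5 transcripts.

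In activated cells Klrg1 was at 10.91 and 10.81 in the double-positive, 10.00 and 5.32 in the ICOS single-positive, 7.34 and 7.44 in the CD103 single-positive and 5.67 and 5.35 in the double-negative subset. In fresh cells it was at 11.83 and 12.03 in the double-positive, 10.29 and 10.00 in the ICOS single-positive, 7.45 and 7.33 in the CD103 single-positive and 5.80 and 5.30 in the double-negative subset. The fresh order was thus double-positive, ICOS single-positive, CD103 single-positive and double-negative, and no neighbouring pair of groups overlapped. The same order held in activated cells on 7 arrays, while ICOS single-positive array 2, the array with low Foxp3, was the lowest of the 8. On the fresh double-positive arrays Klrg1 lay above 98.8% and 99.2% of genes, and on the fresh double-negative arrays above 36.7% and 26.6%.

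**Figure D1:**
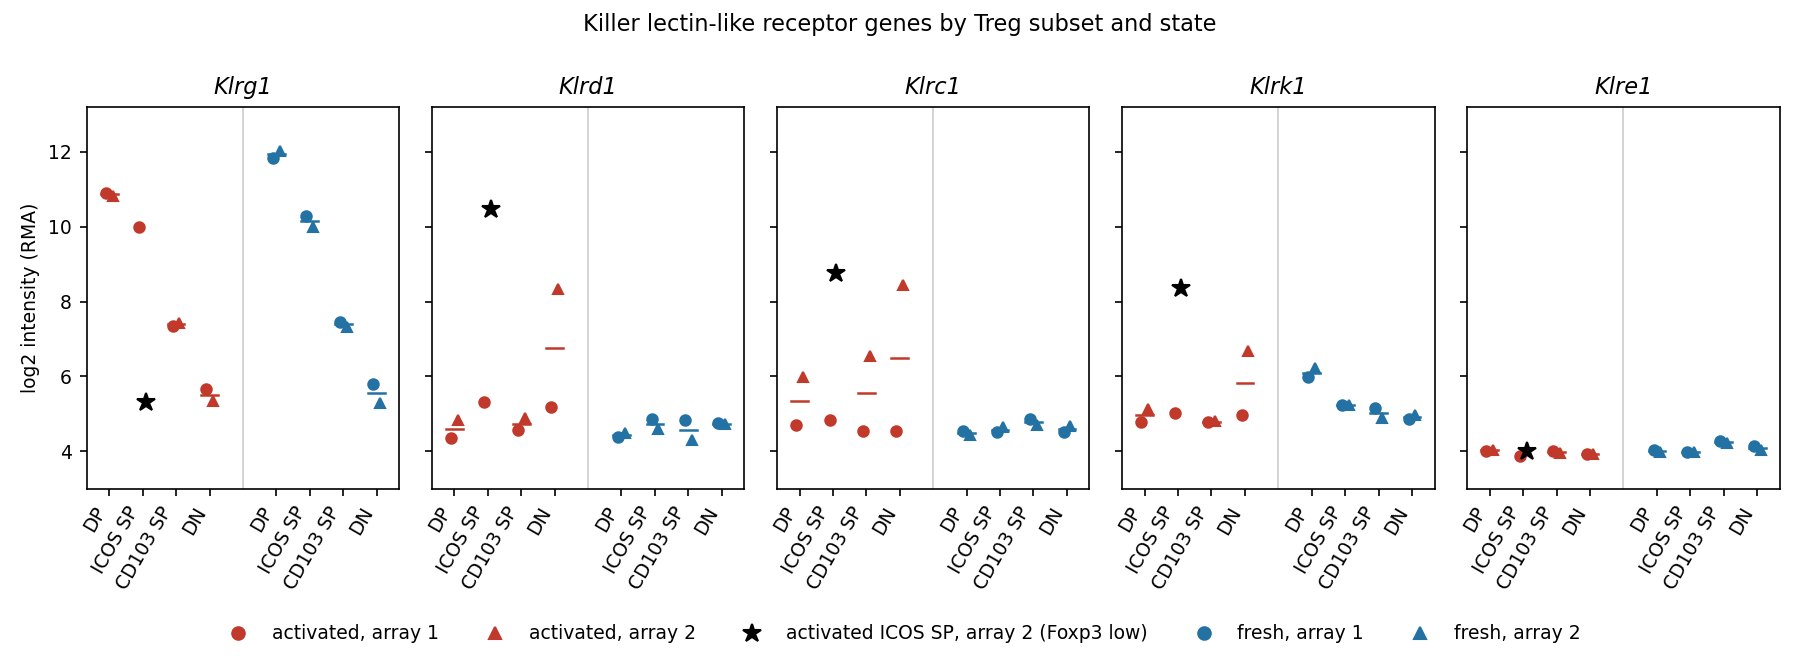
log2 intensity (RMA) of the 5 receptor genes on all 16 arrays, in 4 subsets (DP, double-positive; ICOS SP and CD103 SP, single-positive; DN, double-negative), activated in red and fresh in blue, with circles for array 1, triangles for array 2, lines for the mean of 2 arrays and a black star for activated ICOS SP array 2, whose group has no line. Klrg1 steps down from DP to DN in both states apart from the star, and Klrd1, Klrc1 and Klrk1 are highest at the star and next highest at activated DN array 2.

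In fresh cells the ICOS and the CD103 differences of Klrg1 added up on the log2 scale. Klrg1 averaged 11.93 ± 0.14 in double-positive cells and 7.39 ± 0.08 in CD103 single-positive cells (SD, n = 2 each), a log2 difference of 4.54 or 23.3-fold. It averaged 10.14 ± 0.21 in ICOS single-positive cells and 5.55 ± 0.35 in double-negative cells (SD, n = 2 each), a difference of 4.60 or 24.2-fold. The ICOS difference was therefore of like size with and without CD103, and within arrays of one number it ran from 4.38 to 4.70 in 4 of 4 pairs. In this comparison 6.53% of all genes passed limma's test (Benjamini-Hochberg adjusted p below 0.05 over all genes), and of the other 4 receptors 0 did, with 1, Klre1, at an unadjusted p below 0.05.

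CD103 went with a smaller difference in Klrg1. The difference was 1.79 (3.45-fold) between double-positive and ICOS single-positive cells and 1.84 (3.58-fold) between CD103 single-positive and double-negative cells, and it was positive in 4 of 4 same-number pairs, from 1.54 to 2.03. In the fit over all arrays the averaged difference of 1.81 (SE 0.72) had an adjusted p of 0.538 in limma, and 0 of the 5 receptors passed, where 0.206% of all genes did. At an unadjusted p below 0.05, 1 receptor and 1494 genes did. The spread in this fit is shared by all 8 groups, and 97.7% of Klrg1's residual sum of squares came from the activated ICOS single-positive pair, whose arrays were 25.6-fold apart. Without array 2 of that pair, limma's adjusted p for the same fresh difference was 0.000269, and from the fresh arrays alone it was 0.00533. The fresh levels behind this difference were known when Klrg1 was chosen.

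Klrg1 was again higher with ICOS among activated CD103-positive cells. Klrg1 averaged 10.86 ± 0.07 in activated double-positive cells and 7.39 ± 0.07 in activated CD103 single-positive cells (SD, n = 2 each), a difference of 3.47 or 11.1-fold. In the CD103-negative subsets ICOS single-positive array 1 was 4.33 above double-negative array 1, whereas array 2 was 0.02 below double-negative array 2, so that 3 of 4 same-number pairs were positive. Averaged over CD103 the difference was 2.81 (SE 0.72, limma adjusted p = 0.041), and Klrg1 was the 1 of 5 receptors that passed, where 6.94% of all genes passed. Without the array with low Foxp3 it was 3.98. The call was lost when any one of 14 other arrays was left out, each of the 8 fresh and 6 of the activated ones, at adjusted p from 0.0566 to 0.121 and differences from 2.73 to 2.89, and with the activated arrays alone, at an adjusted p of 0.160. Without ICOS single-positive array 1 the difference was 1.64. Leaving out either array of that pair removes most of the spread measured for Klrg1, 97.7% of its residual sum of squares. Where 1 array of a group is left out, its partner is assumed to vary like the other groups.

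Klrg1 was also higher with CD103 in activated cells, in 4 of 4 same-number pairs, by 0.91 to 5.48. The averaged difference of 2.54 (SE 0.72) did not pass (limma adjusted p = 0.156), and 0 of the 5 receptors passed, where 0.717% of all genes did and where 3 receptors and 2414 genes had an unadjusted p below 0.05. Without the array with low Foxp3 it was 1.37, and without array 1 of the same pair it was 3.71, so its size rests on that pair. As 97.7% of Klrg1's residual sum of squares came from that pair, leaving out either array removes most of the spread measured.

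Between the states Klrg1 differed most clearly in double-positive cells. There it was lower after activation by 0.92 on array 1 and 1.22 on array 2, a mean difference of -1.07 or 2.10-fold. In CD103 single-positive cells the mean difference was 0.00 and in double-negative cells -0.04, both smaller than the spread between 2 arrays. In ICOS single-positive cells the difference was -0.29 on array 1 and -4.67 on array 2, and of these 2 arrays the second has the low Foxp3. Over the 4 subsets the difference was -0.90 (SE 0.51, limma adjusted p = 0.228), and without the array with low Foxp3 it was -0.31. That smaller average rests mainly on double-positive cells. Leaving the array out also removes most of the spread measured for Klrg1, as its pair held 97.7% of the residual sum of squares.

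Averaged over the subsets, 31.2% of all genes passed between activated and fresh cells, while 0 of the 5 receptors did, with 2 of 5 receptors and 7742 genes at an unadjusted p below 0.05. On average Klrg1 was lower after activation with and without the array with low Foxp3, most clearly in double-positive cells. Klrg1 was chosen for its fresh ICOS difference, so its comparisons between the states, which use the same fresh levels, are not independent of that choice. The ICOS difference of Klrg1 was smaller in activated than in fresh cells by 1.76 (log2 difference of differences -1.76, SE 1.02), which did not pass (limma adjusted p = 0.357). Without the array with low Foxp3 it was -0.59 (limma adjusted p = 0.109). Between the states the ICOS difference changed in 6.72% of all genes and the CD103 difference in 0.296%, and 0 of the 5 receptors passed in either, with 1 receptor in each at an unadjusted p below 0.05.

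**Figure D2:**
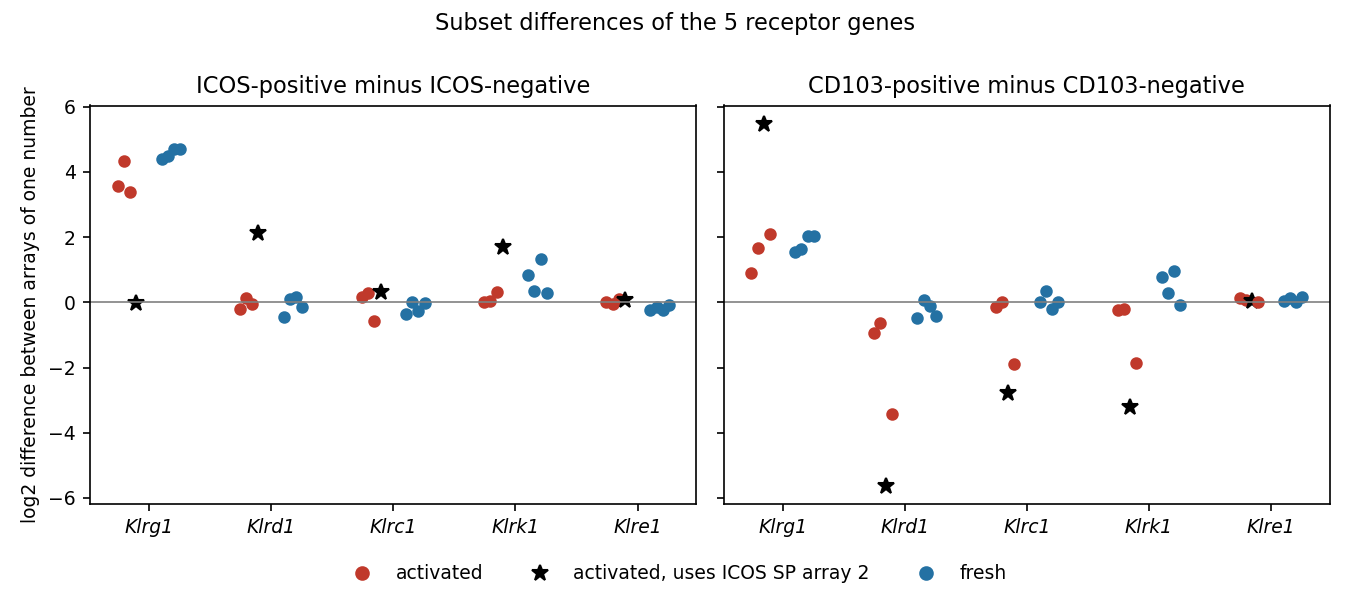
Differences in log2 intensity between arrays of the same number for the 5 receptor genes, ICOS-positive minus ICOS-negative on the left and CD103-positive minus CD103-negative on the right, with activated cells in red, fresh cells in blue and a black star for each difference that uses activated ICOS SP array 2. For Klrg1 the fresh ICOS differences lie between 4.38 and 4.70 and the fresh CD103 differences between 1.54 and 2.03.

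Klrd1, which encodes CD94, was low in fresh Treg and high on 2 activated arrays. In activated cells it was at 4.37 and 4.85 in the double-positive, 5.32 and 10.47 in the ICOS single-positive, 4.56 and 4.90 in the CD103 single-positive and 5.19 and 8.33 in the double-negative subset. The 8 fresh arrays lay between 4.31 and 4.85, with a median of 4.67. In intensity ICOS single-positive array 2 was thus 35.5-fold above its partner and double-negative array 2 was 8.78-fold above its partner. On these 2 arrays Klrd1 lay above 93.9% and 68.9% of genes. The partners, at 5.32 and 5.19, lay above every fresh array too, as did activated CD103 single-positive array 2, at 4.90. Activated and fresh arrays overlapped, and the averaged difference of 1.38 (SE 0.65) did not pass (limma adjusted p = 0.145). It was 0.74 without the array with low Foxp3 and 2.03 without array 1 of that pair, which held 71.6% of Klrd1's residual sum of squares.

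Klrc1, which encodes NKG2A, lay above every fresh array on all 4 activated arrays numbered 2 and on none numbered 1. It was at 4.70 and 5.98 in the activated double-positive, 4.83 and 8.75 in the ICOS single-positive, 4.55 and 6.54 in the CD103 single-positive and 4.54 and 8.44 in the double-negative subset. The 8 fresh arrays lay between 4.44 and 4.88, with a median of 4.59. The 4 activated pairs were thus 2.43-fold to 15.2-fold apart in intensity, each with array 2 higher and array 1 within the range of the fresh arrays. The difference between activated and fresh cells, 1.43 (SE 0.65), did not pass (limma adjusted p = 0.126). It was 0.94 (limma adjusted p = 0.242) without the array with low Foxp3, 1.92 with adjusted p of 0.0221 without activated double-negative array 1, and 0.05 without the 4 activated arrays numbered 2.

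Klrk1, which encodes NKG2D, followed another pattern in each state. In activated cells it was at 4.79 and 5.14 in the double-positive, 5.01 and 8.36 in the ICOS single-positive, 4.78 and 4.82 in the CD103 single-positive and 4.98 and 6.67 in the double-negative subset. In fresh cells it was at 5.99 and 6.22 in the double-positive, 5.23 and 5.25 in the ICOS single-positive, 5.15 and 4.89 in the CD103 single-positive and 4.87 and 4.96 in the double-negative subset. The fresh double-positive arrays thus lay above all other fresh arrays, and CD103 single-positive and double-negative cells overlapped. The fresh ICOS difference was positive in 4 of 4 same-number pairs, from 0.28 to 1.32, yet the average of 0.70 (SE 0.57) did not pass (limma adjusted p = 0.576). From the fresh arrays alone the same difference had an adjusted p of 0.00353.

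In double-positive cells Klrk1 was 2.20-fold lower after activation, and the 2 activated arrays did not overlap the 2 fresh arrays. Over all 4 subsets the difference was 0.25 (SE 0.41, limma adjusted p = 0.724). It was -0.17 without the array with low Foxp3 and -0.43 without the 4 activated arrays numbered 2, so the direction rests on those arrays. The CD103 difference in activated cells was negative in 4 of 4 same-number pairs for Klrk1 (from -3.21 to -0.20) and for Klrd1 (from -5.62 to -0.63), and neither average passed (-1.37, limma adjusted p = 0.375, and -2.66, limma adjusted p = 0.266). Without ICOS single-positive array 1 the averages were -2.21 and -3.95, and without array 2 they were -0.54 and -1.37. That pair held 78.3% of Klrk1's and 71.6% of Klrd1's residual sum of squares.

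Klre1 stayed between 3.88 and 4.26 on all 16 arrays, within the lowest 6.5% of genes on each, and its largest mean difference between 2 states of a subset was -0.27, in CD103 single-positive cells. None of the 7 comparisons called it, with the lowest adjusted p in limma, 0.0669, for activated minus fresh cells (log2 difference -0.11, SE 0.04). That difference was -0.13 without the array with low Foxp3 (limma adjusted p = 0.0575).

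Klrd1, Klrc1 and Klrk1 were highest on the same 2 arrays, activated ICOS single-positive array 2 and activated double-negative array 2. They parted elsewhere. On activated CD103 single-positive array 2 Klrc1 was at 6.54, with Klrd1 at 4.90 and Klrk1 at 4.82. On the fresh double-positive arrays Klrk1 was at 5.99 and 6.22, with Klrd1 at 4.37 and 4.49 and Klrc1 at 4.53 and 4.44. Over the 16 arrays Pearson's r was 0.90 between Klrd1 and Klrc1, 0.86 between Klrd1 and Klrk1 and 0.74 between Klrc1 and Klrk1. Over the 15 arrays without the one with low Foxp3 these were 0.85, 0.59 and 0.47, and Klrg1 had an r of -0.42 with Klrd1. The arrays are 8 groups of 2 and few of them carry the high values, so the coefficients only describe these arrays.

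Some markers of NK and CD8 T cells were high on the same arrays as these 3 genes, and some of these were high on other activated arrays too. Of 17 measured markers, 2 of which (Klrb1c and Gzma) stand in another list as well, 11 were higher on activated ICOS single-positive array 2 than on its partner and 7 lay above all fresh arrays. Over all genes these shares were 53.8% and 13.5%, so the first count was nearer to its background than the second. On activated double-negative array 2 the counts were 8 and 3, against shares of 39.0% and 17.1% over all genes. The second count was close to its share, and the first was not far above it. On double-positive array 2 the counts were 10 and 2, against shares of 43.1% and 22.8% over all genes. On CD103 single-positive array 2 they were 5 and 3, against 34.7% and 19.2%. On the activated arrays numbered 1, 0 to 3 of the 17 lay above all fresh arrays, against 13.7% to 29.3% of all genes. The mean over the list was 6.84 to 7.42 on the activated arrays numbered 2, 6.71 to 6.97 on those numbered 1 and 6.69 to 7.04 on fresh arrays.

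Some cytolytic genes of that list were among the higher ones. Nkg7, a granule protein of cytotoxic lymphocytes, was at 12.38 on activated ICOS single-positive array 2 and 11.94 on double-negative array 2, with 7.96 to 11.41 on the other 6 activated arrays, against 8.63 to 10.24 on the fresh arrays. Prf1, perforin, was at 8.94 and 9.46 on these 2 arrays and 6.50 to 8.47 on the other 6, against 6.20 to 8.03 on the fresh arrays. Gzma, granzyme A, was at 10.19 and 10.85 on these 2 arrays and 7.52 to 10.60 on the other 6, against 5.12 to 7.91 on the fresh arrays, so its high levels were not particular to the pair. The granzyme genes Gzmk (5.13 and 4.85) and Gzmm (6.00 and 5.92) did not lie above all fresh arrays there. Their fresh levels were 4.89 to 5.94 and 5.57 to 6.10. Xcl1, Cd160 and Eomes were higher than on the partner only on ICOS single-positive array 2 of these 2, at 8.06, 8.90 and 6.79. Their fresh arrays lay at 6.64 to 8.05, 6.14 to 7.43 and 5.26 to 6.92. Eomes was thus within its fresh range and Xcl1 level with its highest fresh array.

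The defining NK and CD8 genes were not higher there than on the fresh arrays. Ncr1, the NK receptor NKp46, was at 4.74 and 4.76 on these 2 arrays, against 4.63 to 6.19 on fresh arrays, and Klrb1c, the NK1.1 antigen, was at 4.22 and 4.14, against 4.30 to 5.60. Cd8a was at 6.11 and 5.87 and Cd8b1 at 8.62 and 8.59, with fresh arrays at 6.10 to 8.05 and 8.40 to 8.95. On double-negative array 2 Foxp3 was at 11.69, against 8.53 on the array set apart and 11.97 to 12.84 on the other 14. The mean of the Treg core genes was 10.72 there, against 10.97 to 11.87 on those 14, and Ikzf2, which encodes the Treg transcription factor Helios, was at 9.92, against 10.60 to 11.92. Its pair had the second highest number of genes more than 2-fold apart, 413.

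**Figure D3:**
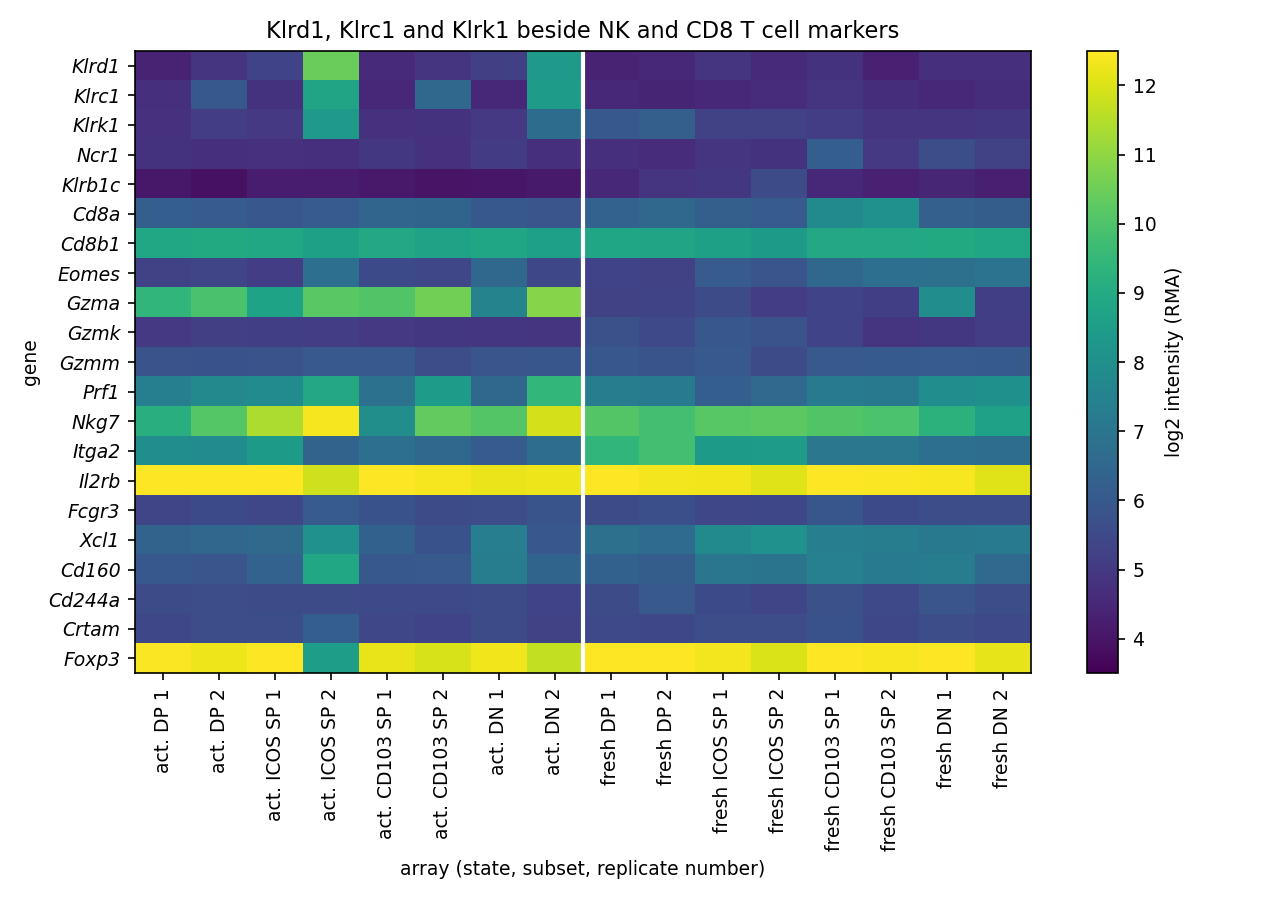
Heat map of log2 intensity (RMA, colour scale at the right) for Klrd1, Klrc1 and Klrk1, 17 NK and CD8 T cell markers and Foxp3 (rows) on the 16 arrays (columns), with activated (act.) arrays left of the white line and fresh arrays right of it. On activated ICOS SP 2 the 3 receptors, Nkg7 and Cd160 are high while Ncr1, Klrb1c and Cd8a are low and Foxp3 is at 8.53.

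Tbx21, which encodes T-bet, a regulator of cytolytic and type 1 programmes, followed the array numbers too. It was at 10.12 to 10.85 on the activated arrays numbered 2, 8.81 to 10.10 on those numbered 1 and 6.80 to 9.40 on fresh arrays. B cell markers (8 measured) averaged 5.29 to 5.65 on the activated arrays numbered 2, 5.59 to 5.75 on those numbered 1 and 5.78 to 6.77 on fresh arrays, and myeloid markers (13 measured) averaged 5.52 to 5.85, 5.55 to 5.83 and 5.56 to 6.28. The part of these markers in the levels of the receptors was not tested.

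The other killer lectin-like receptor genes mostly had low intensities. Of 32 listed, 17 were measured, and 13 of these stayed below 6 on all 16 arrays. The 6 Klra genes (the Ly49 receptors) measured lay between 3.66 and 4.50, and 4 probe sets that name several Klr genes lay between 3.82 and 4.25. In fresh cells 2 of the 17 were higher with ICOS and 1 lower (6.53% of all genes passed), with the same 3 genes called without the array with low Foxp3. Klrb1f, a receptor of the NKR-P1 family, was higher by 1.67 (SE 0.31, limma adjusted p = 0.00875), Klrb1c by 0.59, and Klrb1b was lower by 0.83 (log2 difference -0.83).

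Klrb1f was highest in fresh ICOS-positive cells. It was at 6.24 and 6.24 in activated double-positive cells, against 9.56 and 9.59 in fresh double-positive cells. In ICOS single-positive cells it was at 7.74 and 6.83 when activated, against 8.89 and 8.79 when fresh. It was lower after activation in 8 of 8 same-number pairs, and the averaged difference of -2.06 (SE 0.22) passed (limma adjusted p = 3.27e-05). It was -1.95 without the array with low Foxp3 (limma adjusted p = 6.63e-05). Of the 17 genes 2 fell with activation, Klrb1f and Klrb1c, and 1 rose, Klrg2, by 0.37, with and without that array. These 3 of 17 are a smaller share than the 31.2% of all genes that passed.

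Klrc2 and Klrc3, the neighbours and close paralogs of Klrc1, were at 6.16 and 4.55 on activated double-negative array 2 and at 5.91 and 4.01 on ICOS single-positive array 2. On the fresh arrays Klrc2 stayed between 4.54 and 4.92. Signal shared among these closely related genes cannot be told apart from their own transcripts on these probe sets.

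**Figure D4:**
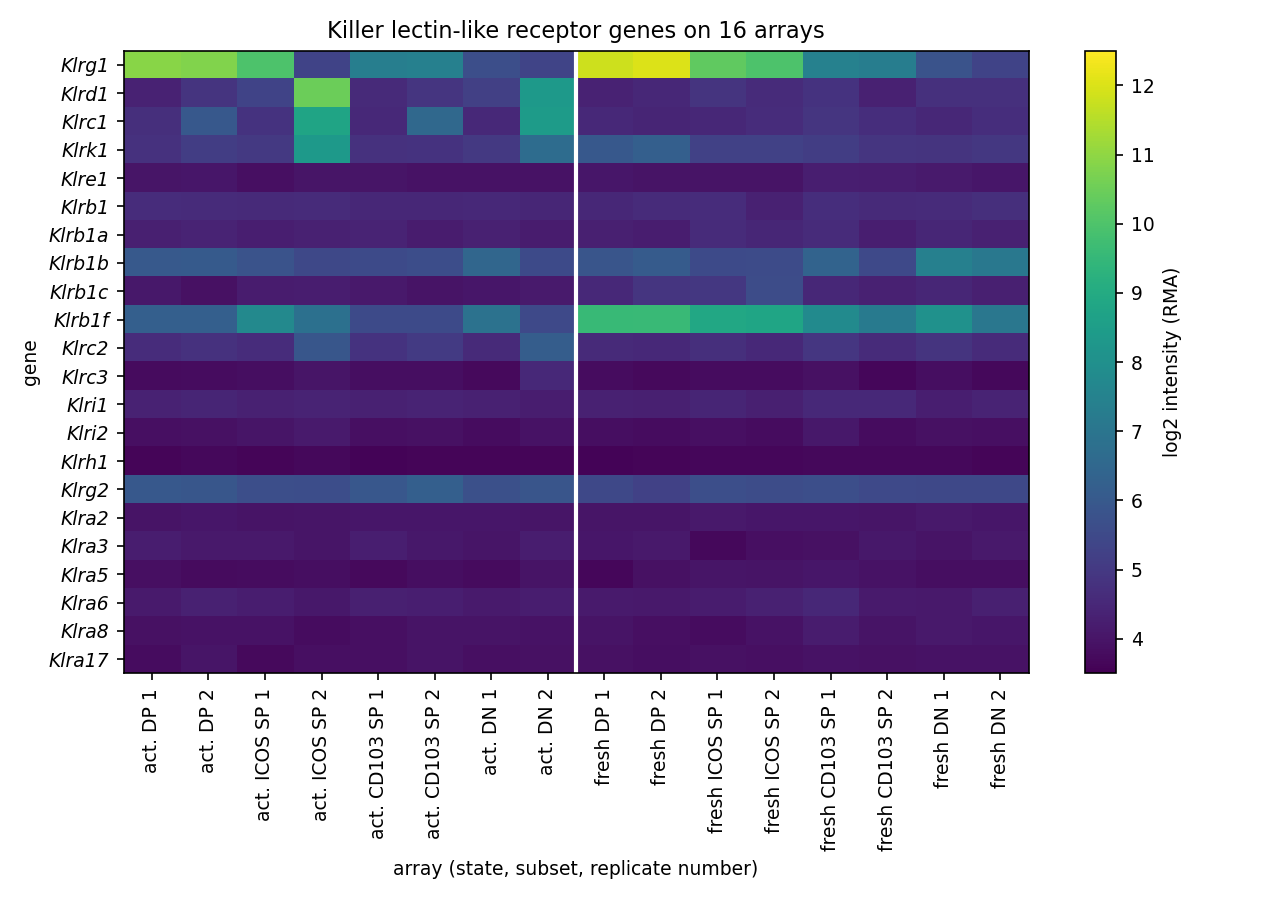
Heat map of log2 intensity (RMA, colour scale at the right) for the 5 receptor genes and the 17 other killer lectin-like receptor genes measured (rows) on the 16 arrays (columns), with activated (act.) arrays left of the white line and fresh arrays right of it. Klrg1 and Klrb1f are highest in fresh ICOS-positive cells, and the Klra rows stay between 3.66 and 4.50.

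Ligands of these receptors were measured for 8 of 19 listed genes. In fresh cells 0 of the 8 passed limma's test with ICOS or with CD103, where 6.53% and 0.206% of all genes did. A count of 0 of 8 is near these shares. At an unadjusted p below 0.05 there were 1 and 0. With activation 4 of the 8 fell (Clec2i by 1.63, H60b by 1.23, Clec2d by 1.18 and Clec2g by 0.22 on the log2 scale) and 0 rose, where 31.2% of all genes passed, and the list's median difference was -0.14, against -0.0032 over all genes. Without the array with low Foxp3, 3 fell, all but Clec2g. The Clec2 genes encode ligands of NKR-P1 receptors and H60b encodes a ligand of NKG2D. Cdh1, E-cadherin, lay between 5.36 and 5.80 on every array.

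Adaptors and signalling partners were lower after activation more often than higher: 6 of 13 fell, 1 rose (Grb2, by 0.22), and the median difference was -0.26. Over all 19938 genes 3344 fell and 2870 rose. Hcst, the NKG2D adaptor, fell by 0.82 (SE 0.07, limma adjusted p = 5.68e-06), and by 0.86 without the array with low Foxp3, and Tyrobp by 0.57 on the log2 scale, next to Fyn (by 1.05) and Pik3r1 (by 0.73). Hcst was at 7.14 to 8.08 on the activated arrays, against 7.96 to 8.53 on the fresh arrays, and it was higher with ICOS in activated cells by 0.41 (limma adjusted p = 0.032), a call that was lost without the array with low Foxp3. Without that array 7 of the 13 fell with activation, with Ptpn6 added, and Grb2 rose.

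Genes linked with the KLRG1-positive effector state were measured for 23 of 26. In fresh cells 11 of the 23 rose with ICOS (12 without the array with low Foxp3) and 4 fell, where 6.53% of all genes passed, with a median difference of 1.05, against -0.05 over all genes. Il10 was higher by 4.19, Ccr2 by 4.09, Gzmb by 3.61 and Havcr2 by 3.56, and Bcl2, Bach2, Id3 and Ccr7, genes of naive and memory-like T cells, were the 4 that fell. In activated cells 1 of the 23 rose with ICOS, Cxcr6 (by 2.39), and 1 fell with CD103, Bach2 (log2 difference -2.40), where 6.94% and 0.717% of all genes passed, so the ICOS count was close to the background. Without the array with low Foxp3, 6 rose with ICOS in activated cells (Ccr2, Cxcr6, Havcr2, Il10, Rora and Tigit) and 1 fell, Bach2. With activation 10 of the 23 rose and 1 fell, Id3, where 31.2% of all genes passed, and without that array 15 rose and 1 fell. The list was drawn up with results of these data known, so its direction is no independent evidence.

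The genes whose levels were most like those of Klrg1 over the 16 arrays, among 1546 genes that varied by at least 2 on the log2 scale, were Alox8, Igsf9b, Pon3, N4bp1 and Myo1f, with Pearson's r of 0.96, 0.95, 0.95, 0.94 and 0.94. Over the 15 arrays without the one with low Foxp3 they were Alox8, Myo1f, Pon3, Igsf9b and Osbpl3, with r from 0.94 to 0.96. Both rankings were among the same 1546 genes, chosen by their range over all 16 arrays. Alox8, a lipoxygenase, was at 9.24 and 8.99 in activated double-positive cells and 6.95 and 7.33 in activated double-negative cells. In fresh cells it was at 10.07 and 9.48 in double-positive cells and 6.96 and 6.48 in double-negative cells. Like Klrg1 it was low on activated ICOS single-positive array 2, at 6.83, against 8.61 on array 1.

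The genes most like Klrd1 over 16 arrays were Ajuba and Pltp (r of 0.95 each), and over 15 arrays Pltp and Mctp2 (0.89 each). For Klrc1 they were Insl6 and Cetn4 (0.92 and 0.91) over 16 arrays, and Ccl4, a chemokine of cytotoxic and activated lymphocytes, and Pdpn (0.94 and 0.92) over 15. For Klrk1 they were Pltp and Ms4a4a (0.88 and 0.87) over 16 arrays, and Serpinb1a and Atp6v0d2 (0.68 and 0.67) over 15, so its highest coefficients were lower without that 1 array. For Klre1, whose own levels spanned less than 1 on the log2 scale, they were Hoxb3 and Nr3c2 (0.90 and 0.89) over 16 arrays and Usp11 and Hoxb3 (0.91 each) over 15. Pltp, Ms4a4a and Insl6 were ranked only through their levels on the array with low Foxp3, 10.05, 7.47 and 7.92. On the other 15 arrays they spanned less than 2, at 6.23 to 7.64, 4.76 to 5.59 and 5.64 to 7.44. The ranking over 15 arrays is thus not free of that array.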

How the data were processed

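RNA was measured on 16 Affymetrix arrays, 2 for each of 8 groups. The deposited values are log2 intensities for 35556 probe sets, made with RMA and affy per the submitters' processing notes, with versions and settings not given in the sources used here. They lie between 3.02 and 14.2, with array medians of 6.26 to 6.48, and no further normalization was applied. The annotation gives 21789 probe sets exactly 1 gene symbol, 1621 several and 12146 none. Only those with 1 symbol entered, the brightest over all arrays standing for each of 999 genes with more than 1, which left 19938 genes. Arrays carry no counting depth, and their number limits the precision.

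limma 3.58.1 in R 4.3.3 was fitted to the 16 arrays together, with a mean per group (8 residual degrees of freedom, prior of 2.90), for 7 comparisons, with Benjamini-Hochberg adjustment over all genes and a threshold of 0.05. The fit was tested on simulated data with independent noise around the mean of each gene. Those data held no outlying array and nothing shared by arrays of one number, so the test does not cover either. The receptors and the gene lists were chosen with earlier results of these data known. Named besides the receptors are the 5 genes most like Klrg1 and the 2 most like each other receptor, and of each list up to 4 genes that passed; further genes were chosen after their values were seen. P-values set a difference against the spread between the 2 arrays of a group, pooled over all groups in the fit. limma draws this spread toward a value shared by all genes. Alternatives were quantile normalization again, a filter on dim genes, the replicate number as a block, array weights, the arrays of 1 state only and each array left out. All sample columns were used.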

Additional observations from a re-analysis of the deposited data

How the results depend on the processing

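Of 5 receptors in 7 comparisons, the count that passed moved as follows. In fresh cells 2 passed with ICOS from the fresh arrays alone and without the 4 activated arrays numbered 2 (an alternative chosen after seeing the data), against 1 from all 16 arrays, the one added being Klrk1 and the other Klrg1, which was chosen for this difference. With CD103 1 passed, Klrg1, under both, against 0. In activated cells 0 passed with ICOS from the activated arrays alone, against 1, and with CD103 1 passed without the 4 arrays, against 0. Activated minus fresh gave 1 without the 4 arrays, Klrk1, and 1 with the replicate number as a block (Klrc1, adjusted p = 0.0435), against 0. Leaving out 1 array at a time, these counts ran from 0 to 1 for fresh CD103, 0 to 2 for activated ICOS, 0 to 3 for activated CD103, 0 to 4 for activated minus fresh, 0 to 1 for the ICOS difference between states and 0 to 3 for the CD103 difference between states, with the highest counts without activated ICOS single-positive array 1. The activated ICOS single-positive pair held 97.7%, 71.6% and 78.3% of the residual sums of squares of Klrg1, Klrd1 and Klrk1. Counts without 1 of its arrays thus rest on a smaller measured spread. Directions turned in receptors that had not passed. With each array left out, fresh ICOS ran from -0.21 to 0.051 for Klrd1, and activated ICOS from -0.78 to 1.79 for Klrd1, -0.93 to 1.03 for Klrc1 and -0.32 to 1.35 for Klrk1. Activated minus fresh ran from -0.17 to 0.67 for Klrk1. The ICOS difference between states ran from -0.70 to 1.87 for Klrd1, -0.78 to 1.18 for Klrc1 and -1.03 to 0.65 for Klrk1, and the CD103 difference between states from -0.44 to 1.89 for Klrg1 and -0.056 to 0.0081 for Klre1. Without the 4 arrays, activated ICOS was -0.034 for Klrd1 and -0.020 for Klre1, activated minus fresh -0.43 for Klrk1, and the CD103 difference between states -0.52 for Klrg1 and 0.011 for Klre1. The causes were not tested.

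Replicate numbers were not taken to pair the arrays, since the labels tie them to nothing. Deviations of same-number arrays correlated from -0.02 to 0.75 over 28 pairs of groups, 27 of them above 0.1. Among pairs of groups of 1 state, 12 of 12 lay above 0.1, from 0.11 to 0.75. The main fit has no term for the number, so what same-number arrays share stays in its spread. As a block the number raised the genes called from 1301 to 2275 for fresh ICOS, 41 to 143 for fresh CD103, 1383 to 2734 for activated ICOS, 143 to 519 for activated CD103, 1339 to 2638 for the ICOS and 59 to 370 for the CD103 difference between states. From the arrays of 1 state alone the counts were 268 for fresh CD103, 443 for activated ICOS and 0 for activated CD103 (limma, with 1980 genes at an unadjusted p below 0.05), and without the 4 arrays 268, 239 for activated CD103 and 187 for the CD103 difference between states. The dim-gene filter gave 9 for fresh CD103 and renewed quantile normalization 133 for the CD103 difference between states. With single arrays left out, counts ran from 771 (without fresh ICOS single-positive array 2) to 1558 for fresh ICOS, 4 to 158 for fresh CD103, 23 to 942 for activated CD103, 509 to 1449 for activated ICOS, 815 to 1663 for the ICOS and 8 to 366 for the CD103 difference between states. No receptor had a further probe set to try, and the filter removed 4 of the 5 receptors. Array weights and renewed quantile normalization kept every receptor's direction and side of the threshold. Having 2 arrays per group, and levels below the median of all genes for 4 receptors, limits what can be seen.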
